A study of Mus musculus with 12 samples.

Results

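Gene expression in mouse vessels after 7 days of angiotensin II infusion was compared with expression after 3 days. The comparison used the 3 arrays titled vessel at T7 and the 3 titled vessel at T3, 6 of the 12 arrays measured. All 6 came from male C57BL/6 mice aged 8 to 10 weeks, infused by osmotic pump at 1500 ng of angiotensin II per kg per min in acidified saline. The other arrays were 3 of untreated mice (day 0) and 3 of mice infused for 1 day, and the sources used here do not say whether day 0 mice carried a pump. Days 3 and 7 share the pump and the agent and differ in the time of infusion. Total RNA of the vessel was measured. The labels do not name the vessel or say how much of the tissue around it was kept. Each group had 3 arrays described as biological replicates. Whether each was 1 mouse is not given, so p-values measure the spread between these arrays.

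Angiotensin II is the effector peptide of the renin-angiotensin system: through its type 1 receptor it constricts arteries, raises blood pressure and acts on smooth muscle cells, fibroblasts, endothelium and immune cells. In infused vessels an early phase of inflammatory signalling, leukocyte entry and cell division is known to be followed by deposition of collagen and other matrix, mostly in the adventitia. The question here is which transcripts turned between those phases. In total RNA of a tissue, fewer cells of a type and less RNA per cell cannot be told apart.

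Values are log2 signals as deposited, so 1 unit is a 2-fold difference. Each gene symbol was represented by its brightest transcript cluster, averaged over the 12 arrays, and 22066 of 30702 genes passed the filter on dim signals. A gene was called when limma's adjusted p for day 7 against day 3 was under 0.05. Pearson r across genes lay between 0.984 and 0.993 for pairs of day 3 arrays, between 0.969 and 0.983 for pairs of day 7 arrays, and between 0.957 and 0.987 across the 2 days. Signal over background, the median of positive minus that of negative control features, was 2.11, 2.01 and 1.83 on day 3 replicates 1 to 3 and 1.20, 1.98 and 2.10 on day 7 replicates 1 to 3. Day 7 replicate 1 therefore stood apart from the other 5 arrays, and values that rest on it are given with and without it. The exact two-sided permutation test of this measure between the days gave p = 0.6, where 3 against 3 arrays cannot go below 0.1. The vessel label was borne out by its defining markers: Myh11, the smooth muscle myosin heavy chain, gave 19.23, 19.30 and 19.28 on the day 0 arrays, and the endothelial adhesion molecule Pecam1 gave 10.34, 11.90 and 11.57 on the day 3 arrays. Both means were lower at day 7 than at day 3, but neither gene was called and the arrays of the 2 days overlapped. Myh11 gave 16.67, 15.71 and 14.79 at day 3 and 12.69, 10.80 and 15.10 at day 7. Its difference was -2.86 ± 1.07 (limma adjusted p = 0.306). Pecam1 differed by -0.84 between days 3 and 7. With 3 arrays in a group, the precision of each value is limited by their number.

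Between day 3 and day 7, 59 genes were called. Of these, 25 rose, which is 0.113% of the genes tested, and 34 fell, which is 0.154%. Their changes ranged in size from 0.43 to 4.36 log2 units, 46 of them were at least 2-fold, and in all 59 the 3 day 7 arrays lay beyond all 3 day 3 arrays. Such a lack of overlap was also seen in 7.04% of all genes on the higher side and 7.97% on the lower side, and an unadjusted limma p under 0.05 in 6.25% and 6.68%. The median change of all genes was 0.02. After quantile normalization 42 genes were called higher and 89 lower. Named genes that rose encode matrix and fibroblast products, apolipoproteins, macrophage proteins and cardiac sarcomere proteins. Those that fell include tissue factor, endothelial and macrophage markers of the early days, stromelysin, a mast cell protease and the immediate-early factor Egr1. The count depends on single arrays: it was 17, 16 and 10 without day 3 replicates 1, 2 and 3, 272 without day 7 replicate 1, 186 without day 7 replicate 3 and 29 without day 0 replicate 3. Of the 15 largest changes among named genes in each direction, 5 higher and 2 lower stayed called whichever of the 12 arrays was left out. These were Aspn, C1qtnf3, Angptl1, Myh6 and Itm2a among the genes that rose, and Lyve1 and Vgll3 among those that fell.

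The largest rise was that of Aspn, which encodes asporin, a small leucine-rich proteoglycan of the extracellular matrix that binds collagen and TGF-beta. Its log2 signal was 12.65, 12.53 and 12.58 on the day 3 arrays and 16.52, 16.78 and 16.88 on the day 7 arrays. That is a rise of 4.13 ± 0.23 (SE of the fit, 3 arrays per group), or 17.6-fold, with limma adjusted p = 0.00013. The 3 day 7 arrays lay close together and far above every earlier array, since day 0 gave 12.21, 11.33 and 12.15 and day 1 gave 13.17, 12.82 and 12.62. Aspn was also the single gene called when only the 6 arrays of days 3 and 7 were fitted. Thbs2, for the matricellular glycoprotein thrombospondin 2, gave 7.40, 8.14 and 7.59 on the day 3 arrays and 9.37, 10.40 and 10.26 on the day 7 arrays, a rise of 2.30 ± 0.27 (limma adjusted p = 0.015). At day 0 it stood between them, at 8.57, 8.90 and 8.63, so it had been lower at day 3 than before infusion. Fap encodes fibroblast activation protein, a surface protease of activated fibroblasts. It rose by 1.63 ± 0.21, from 7.16, 7.81 and 7.05 at day 3 to 8.76, 9.05 and 9.10 at day 7 (limma adjusted p = 0.0201).

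Several other genes that rose encode secreted proteins. C1qtnf3, of the C1q and tumour necrosis factor related family, was 5.98, 5.81 and 5.57 on the day 3 arrays and 8.73, 10.49 and 9.48 on the day 7 arrays, a measured rise of 3.78 ± 0.36 (limma adjusted p = 0.00636). At day 3 all 3 arrays were dimmer than the median negative control, so the rise is given as at least 3.51, the difference from the negative control medians, or at least 11.4-fold. Angptl1, an angiopoietin-like secreted protein, was 5.75, 6.32 and 6.33 on the day 3 arrays and 8.97, 9.67 and 8.90 on the day 7 arrays and rose by 3.05 ± 0.25 (limma adjusted p = 0.00207). Pon1, the esterase paraoxonase 1 carried on high-density lipoprotein, was 6.94, 7.13 and 6.43 on the day 3 arrays and 9.13, 10.13 and 10.56 on the day 7 arrays and rose by 3.11 ± 0.40 (limma adjusted p = 0.0195). Clu encodes the secreted chaperone clusterin, and its untreated level lay near that at day 7. It was 11.31, 11.55 and 11.46 at day 0, 8.89, 9.79 and 9.65 at day 3 and 11.29, 12.31 and 11.34 at day 7. Its rise from day 3 was 2.20 ± 0.31 (limma adjusted p = 0.0226). Its difference of day 7 from day 0 was 0.21 ± 0.31 (limma adjusted p = 0.616). Day 7 replicate 1 lay below every untreated array and replicate 2 above every one. Ndnf, a secreted factor first described in neurons, rose by at least 0.69 on the same reckoning (measured change 1.01 ± 0.15), and Itm2a, a small membrane protein, rose by 1.27 ± 0.13 (limma adjusted p = 0.0278 and 0.00691). Plk2, a polo-like kinase, rose by 2.04 ± 0.33 with the weakest support among the named genes that rose (limma adjusted p = 0.0455).

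**Figure D1:**
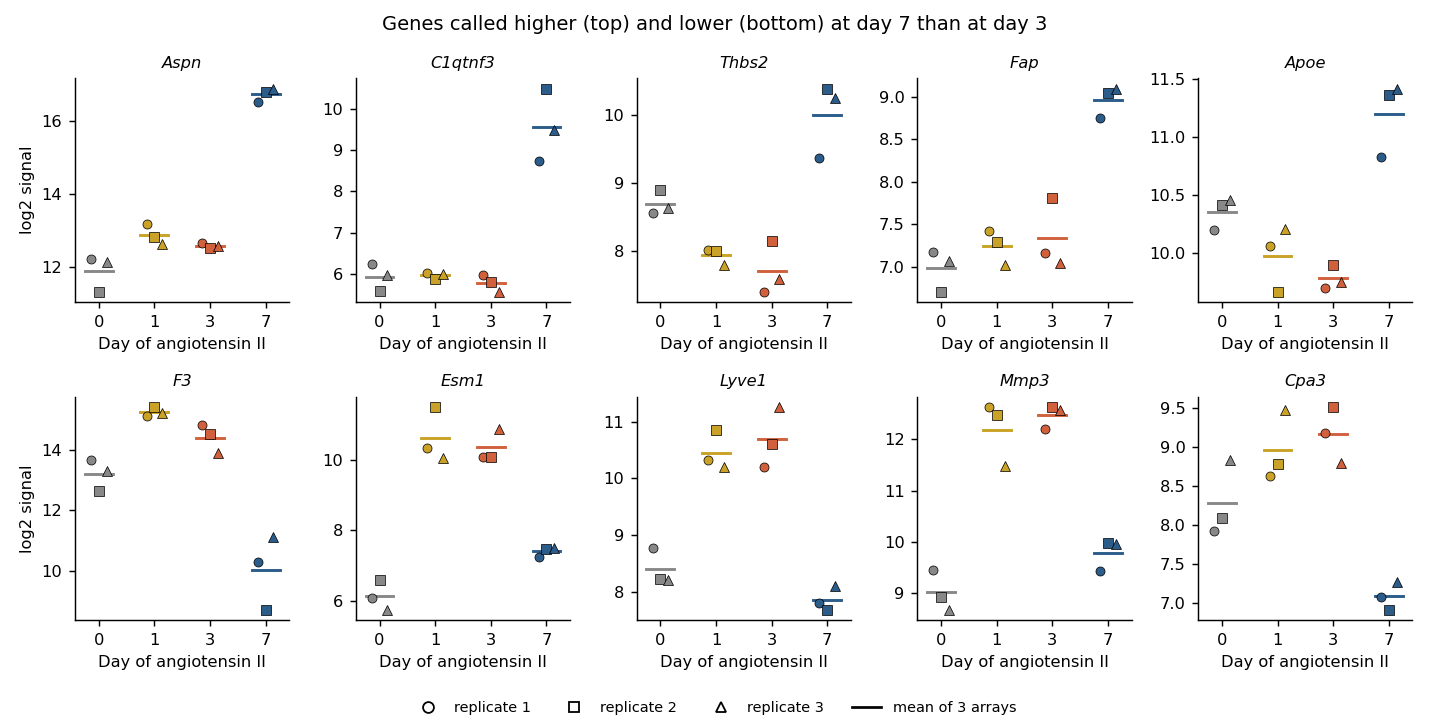
Log2 signal of 10 called genes on all 12 arrays, against the day of angiotensin II infusion; symbols mark the replicates and short lines their mean. In the top row (Aspn, C1qtnf3, Thbs2, Fap and Apoe) the 3 day 7 arrays lie above all 3 day 3 arrays, and in the bottom row (F3, Esm1, Lyve1, Mmp3 and Cpa3) below them.

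Genes of lipid transport and of macrophages were also among those that rose. Apoe, the apolipoprotein E made in tissues largely by macrophages, was 9.69, 9.90 and 9.75 on the day 3 arrays and 10.82, 11.36 and 11.41 on the day 7 arrays, a rise of 1.42 ± 0.18 (limma adjusted p = 0.0185). Its day 0 arrays gave 10.20, 10.41 and 10.46, under every day 7 array. Apoc1, which lies beside Apoe in the same cluster of apolipoprotein genes, was 7.19, 7.06 and 7.10 on the day 3 arrays and 8.59, 8.62 and 8.02 on the day 7 arrays and rose by 1.29 ± 0.18 (limma adjusted p = 0.0226). Mpeg1, the pore-forming macrophage protein perforin-2, was 6.26, 7.11 and 6.65 on the day 3 arrays and 8.34, 8.93 and 8.47 on the day 7 arrays and rose by 1.91 ± 0.26 (limma adjusted p = 0.0226). Marcks, a membrane and actin binding substrate of protein kinase C, rose by 0.91 ± 0.12 (limma adjusted p = 0.0226). Of the 13 tested members of a list of lipid-handling macrophage genes, Apoe was the 1 called. Above day 3 on all arrays lay 5, beside 7.04% of all genes: Apoe, Lpl, Cd36, Abca1 and Fabp5. Of the 13, 11 had a positive change and 2 a negative one, with Gpnmb lowest at -0.47 and Trem2 at 0.05. The list's median change was 0.58, beside 0.02 over all genes, and 0.30 without day 3 replicate 1, 0.36 without day 7 replicate 2 and 0.69 without day 7 replicate 1. Apoe was not called without any 1 of the day 3 arrays (limma adjusted p from 0.0704 to 0.1005). Lpl and Cd36 are also genes of fat cells. Of 15 white adipocyte genes none was called, but 7 lay above day 3 on all 3 day 7 arrays, and their median change was 0.67, or 0.43 without day 3 replicate 2, 1.01 without day 3 replicate 1 and 1.03 without day 7 replicate 1. Adiponectin (Adipoq) was 9.48, 9.35 and 9.50 on the day 3 arrays and 10.88, 11.70 and 11.23 on the day 7 arrays, a difference of 1.83 ± 0.35 (limma adjusted p = 0.0755). The mean signal of the white adipocyte list on an array was 10.63 to 11.14 at day 3, 11.25 to 11.87 at day 7 and 11.44 to 11.51 at day 0. The part of adipose tissue in these results was not tested. In a fit with the mean signal of white and brown adipocyte genes as a covariate, 58 of the 59 genes stayed called. The average of both lists was 9.06 to 9.21 on the day 3 arrays and 9.30 to 9.60 on the day 7 arrays. It did not overlap between these days, so that fit cannot fully separate it from the day.

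Cardiac sarcomere genes formed the list with the most called members. Myh6, the alpha myosin heavy chain of atrial and adult rodent ventricular muscle, was 5.42, 5.65 and 5.79 on the day 3 arrays and 7.92, 7.77 and 7.96 on the day 7 arrays, a measured rise of 2.26 ± 0.11 (limma adjusted p = 7.47e-05). Tnnt2, cardiac troponin T, was 7.97, 7.94 and 8.10 on the day 3 arrays and 9.28, 9.67 and 9.50 on the day 7 arrays and rose by 1.48 ± 0.18 (limma adjusted p = 0.015). Myl7, the atrial myosin light chain, was 5.25, 5.59 and 5.44 on the day 3 arrays and 6.98, 6.38 and 6.81 on the day 7 arrays and its measured rise was 1.29 ± 0.15 (limma adjusted p = 0.015). At day 3 Myh6 and Myl7 were both dimmer than the median negative control on each array, so their rises are at least 1.83 and 0.67. Myh7, the beta myosin heavy chain, was called too (change 0.57 ± 0.08, limma adjusted p = 0.0285), but was dimmer than the median negative control on each of the 6 arrays. In all, 4 of 14 tested cardiac genes rose and none fell, beside 0.113% and 0.154% of all genes. Of the 14, 10 lay above day 3 on all arrays, beside 7.04% of all genes, and the median change was 0.56. Without a day 3 array, 1 or 2 of the 14 were called. Of 10 skeletal muscle genes none was called, 7 lay above day 3 on all arrays, and the median was 0.64. Without day 7 replicate 1, 6 of these 10 were called. The mean signal of the cardiac list was 5.86 to 5.93 on the day 3 arrays and 6.49 to 6.68 on the day 7 arrays, and that of the skeletal list 5.63 to 5.80 and 5.93 to 6.73. These levels are near the negative control medians of 5.98 to 6.14 on the 6 arrays. With the mean muscle signal as a covariate no gene was called by limma, and 936 had an unadjusted p under 0.05. That signal was 6.31 to 6.62 on the day 7 arrays and at most 5.86 on every other array, so it and the day cannot be told apart.

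Among the genes that fell, F3, which encodes tissue factor, the receptor that starts the extrinsic pathway of coagulation, changed most. Its log2 signal was 14.81, 14.50 and 13.88 on the day 3 arrays and 10.29, 8.70 and 11.12 on the day 7 arrays, a fall of 4.36 ± 0.54, or 20.5-fold (limma adjusted p = 0.016). The untreated arrays gave 13.64, 12.64 and 13.28 and the day 1 arrays 15.09, 15.40 and 15.21, so the day 7 arrays lay below every other array. Against day 0, where 25.2% of all genes were called, F3 was lower at day 7 by 3.15 ± 0.54 (limma adjusted p = 0.00482). Egr1, the zinc finger factor that is induced within minutes of a stimulus, likewise fell below its untreated level. It gave 7.61, 7.72 and 8.36 at day 0, 6.83, 6.75 and 7.13 at day 1 and 7.38, 7.57 and 7.58 at day 3. At day 7 it gave 6.05, 6.21 and 6.33, near background, and the fall from day 3 was 1.31 ± 0.19 (limma adjusted p = 0.0254). Egr1 was thus already below the untreated arrays at day 1 (difference -0.99 ± 0.19, limma adjusted p = 0.0258) and higher again at day 3. Its difference of day 3 from day 0 was not called (limma adjusted p = 0.212). Fads1, the delta-5 fatty acid desaturase, gave 10.34, 10.03 and 10.15 at day 0, 9.10, 9.23 and 8.91 at day 3 and 7.03, 7.59 and 7.97 at day 7. Its fall from day 3 was 1.55 ± 0.21 (limma adjusted p = 0.0211).

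A second pattern was that of genes raised at days 1 and 3 that came back towards the untreated level by day 7. Esm1, for endocan, a proteoglycan of activated endothelium, gave 6.10, 6.60 and 5.74 at day 0, 10.34, 11.49 and 10.06 at day 1, 10.07, 10.09 and 10.88 at day 3 and 7.24, 7.48 and 7.50 at day 7. It fell by 2.94 ± 0.38 from day 3 (limma adjusted p = 0.0189), or 7.67-fold, and at day 7 was still 1.26 ± 0.38 above day 0 (limma adjusted p = 0.0387). Lyve1, the hyaluronan receptor of lymphatic endothelium and of resident vessel macrophages, gave 8.76, 8.23 and 8.21 at day 0, 10.21, 10.61 and 11.26 at day 3 and 7.79, 7.67 and 8.10 at day 7. Its fall was 2.84 ± 0.28 (limma adjusted p = 0.00691), and every day 7 array lay below every untreated one, although the difference from day 0 was not called (limma adjusted p = 0.16). Mmp3, the secreted protease stromelysin 1, gave 9.46, 8.93 and 8.67, then 12.20, 12.63 and 12.57 and 9.44, 9.98 and 9.96 on the same days and fell by 2.67 ± 0.32 (limma adjusted p = 0.015). Svep1, a large matrix protein that binds integrins, gave 9.39, 8.58 and 8.97, 11.61, 12.08 and 12.00 and 9.26, 10.21 and 10.08 and fell by 2.05 ± 0.30 (limma adjusted p = 0.0305). For each of these 4 genes the difference of day 3 from day 0, a comparison in which 11.8% of all genes were called, was between 2.29 and 4.20 (limma adjusted p at most 0.00328). Those values share the day 3 arrays with the falls beside them.

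Smaller falls followed the same course. Alpl, the tissue-nonspecific alkaline phosphatase that splits pyrophosphate, was 7.33, 7.34 and 7.58 on the day 3 arrays and 6.37, 6.03 and 6.02 on the day 7 arrays after 6.14, 6.18 and 6.02 at day 0, and fell by 1.28 ± 0.19 (limma adjusted p = 0.0285). Wfdc17, a whey acidic protein family gene of activated macrophages, fell by 1.00 ± 0.16, and Gas7, a cytoskeletal adaptor, by 0.77 ± 0.09 (limma adjusted p = 0.0455 and 0.0154). Dnmt1, the maintenance DNA methyltransferase of dividing cells, was 8.36, 8.55 and 8.46 on the day 3 arrays and 7.54, 7.82 and 7.86 on the day 7 arrays and fell by 0.72 ± 0.11 (limma adjusted p = 0.0352). It had been 7.81, 7.80 and 7.69 at day 0. Tgfb1, the transforming growth factor, fell by 0.43 ± 0.07, the smallest change called, from 7.34, 7.37 and 7.45 to 6.83, 6.96 and 7.06 (limma adjusted p = 0.0455). Its untreated arrays gave 7.08, 7.11 and 7.10. That call was lost without any 1 of the day 0, 1 or 3 arrays (limma adjusted p from 0.0655 to 0.207) and without day 7 replicate 2 (0.0746).

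Other genes that fell had no called rise from day 0 to day 3. Creb3l2, a membrane-bound transcription factor of secretory cells, fell by 1.49 ± 0.20, and Plp2, a small proteolipid, by 1.75 ± 0.19 (limma adjusted p = 0.0226 and 0.0113). Vgll3, a cofactor of TEAD transcription factors, was 8.22, 8.16 and 7.94 on the day 3 arrays and 6.83, 6.79 and 7.13 on the day 7 arrays and fell by 1.19 ± 0.13 (limma adjusted p = 0.00932). Ptch1, the hedgehog receptor, fell by 0.82 ± 0.10, and Odc1, the first enzyme of polyamine synthesis, by 1.20 ± 0.19 (limma adjusted p = 0.0163 and 0.0488). The falls also included Rpl41, of the large ribosomal subunit, by 1.55 ± 0.22 (limma adjusted p = 0.025), and 12 annotated pseudogenes, by 0.97 to 1.81. A pseudogene's signal cannot be told apart from that of an expressed copy with the same sequence, and of 10 other ribosomal protein genes none was called (median -0.17, or -0.05 without day 7 replicate 1 and -0.33 without day 7 replicate 2). With the mean of its clusters in place of the brightest, Rpl41 was not called (change -0.95, limma adjusted p = 0.0565). A mean signal of at least 8 was seen in 27 of the 34 genes that fell and 7 of the 25 that rose, beside 5458 of all 22066 genes (24.7%). The median change was -0.16 for genes whose mean signal was between 10 and 12, and 0.07 for those between 5 and 6.

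Matrix genes were divided between the directions. Over all genes, 7.04% lay above and 7.97% below day 3 on all arrays. Of 33 matricellular and provisional matrix genes, 2 rose (Aspn and Thbs2), 8 lay above and 5 below day 3 on all arrays, and the median was -0.19, or -0.41 without day 7 replicate 3, -0.11 without day 7 replicate 2 and -0.07 without day 7 replicate 1. Thbs2 was not called without day 3 replicate 1 or 3. Of 26 fibrillar collagen and collagen assembly genes none was called, 8 lay above and 2 below, and the median was 0.27, beside 0.02 over all genes. The 2 below are near the share of all genes. Without day 7 replicate 1, 3 of the 26 were called higher and 16 lay above on all arrays, with a median of 0.41. Col3a1, a fibrillar collagen of the vessel wall, was 16.11, 16.80 and 16.39 on the day 3 arrays and 17.55, 18.76 and 18.32 on the day 7 arrays, a difference of 1.77 ± 0.35 (limma adjusted p = 0.0861, and 0.021 without day 7 replicate 1). Col1a1, the main chain of type I collagen, was 16.22, 16.20 and 16.12 on the day 3 arrays and 17.10, 17.85 and 17.81 on the day 7 arrays, a difference of 1.41 ± 0.32 (limma adjusted p = 0.115). Both sets of arrays were separate, and the day 7 values were the highest of all 12 arrays. Thbs4, a thrombospondin, differed by 1.42 ± 0.25 and Comp, the cartilage oligomeric matrix protein, by 1.61 ± 0.47, again with no overlap (limma adjusted p = 0.0636 and 0.193). Fibulin 1 (Fbln1) went the other way, at 9.57, 9.01 and 8.88 on the day 3 arrays and 7.45, 7.71 and 7.48 on the day 7 arrays, a difference of -1.61 ± 0.27 (limma adjusted p = 0.0522).

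The proteases and their inhibitors also split, where 7.04% of all genes lay above and 7.97% below day 3 on all arrays. Of 25 tested, 1 fell (Mmp3) and none rose, 5 lay above and 7 below day 3 on all arrays, and the median was -0.09, with no settled sign: it ranged from -0.26 without day 3 replicate 2 to 0.11 without day 3 replicate 3. Without day 7 replicate 1, 4 were called higher, and without day 3 replicate 2 or 3 Mmp3 was not called. Mmp2, the gelatinase A of fibroblasts, was 10.51, 11.15 and 10.64 on the day 3 arrays and 11.79, 13.47 and 12.77 on the day 7 arrays, a difference of 1.91 ± 0.39 (limma adjusted p = 0.0918), opposite in sign to Mmp3. Timp1, an inhibitor of these proteases, differed by -1.13 ± 0.40 (limma adjusted p = 0.285). Of 33 genes of TGF-beta and growth factor signalling, 1 fell (Tgfb1), 1 lay above and 11 below on all arrays, and the median was -0.35, or -0.22 without day 7 replicate 1. Ccn1 and Ccn2, matricellular proteins that are targets of YAP and TGF-beta signalling, showed the largest differences. Ccn1 was 13.37, 12.65 and 14.28 on the day 3 arrays and 9.38, 11.21 and 11.65 on the day 7 arrays, after 18.10, 18.15 and 18.64 at day 0, and Ccn2 was 14.69, 13.89 and 14.86 on the day 3 arrays and 10.99, 11.34 and 13.48 on the day 7 arrays, after 15.27, 15.18 and 15.16. Their differences from day 3 were -2.69 ± 0.59 and -2.55 ± 0.63 (limma adjusted p = 0.106 and 0.139). Of 17 myofibroblast and activated fibroblast genes 1 rose (Fap), 7 lay above and 2 below, and the median was 0.43, or 0.75 without day 7 replicate 1. Fap was not called without day 3 replicate 1 or 3. Periostin (Postn), a matricellular protein of that list, was 17.21, 16.75 and 17.15 on the day 3 arrays and 17.75, 18.29 and 18.23 on the day 7 arrays, so its arrays at day 7 lay above day 3, but it had been 18.24, 18.81 and 18.26 before infusion.

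**Figure D2:**
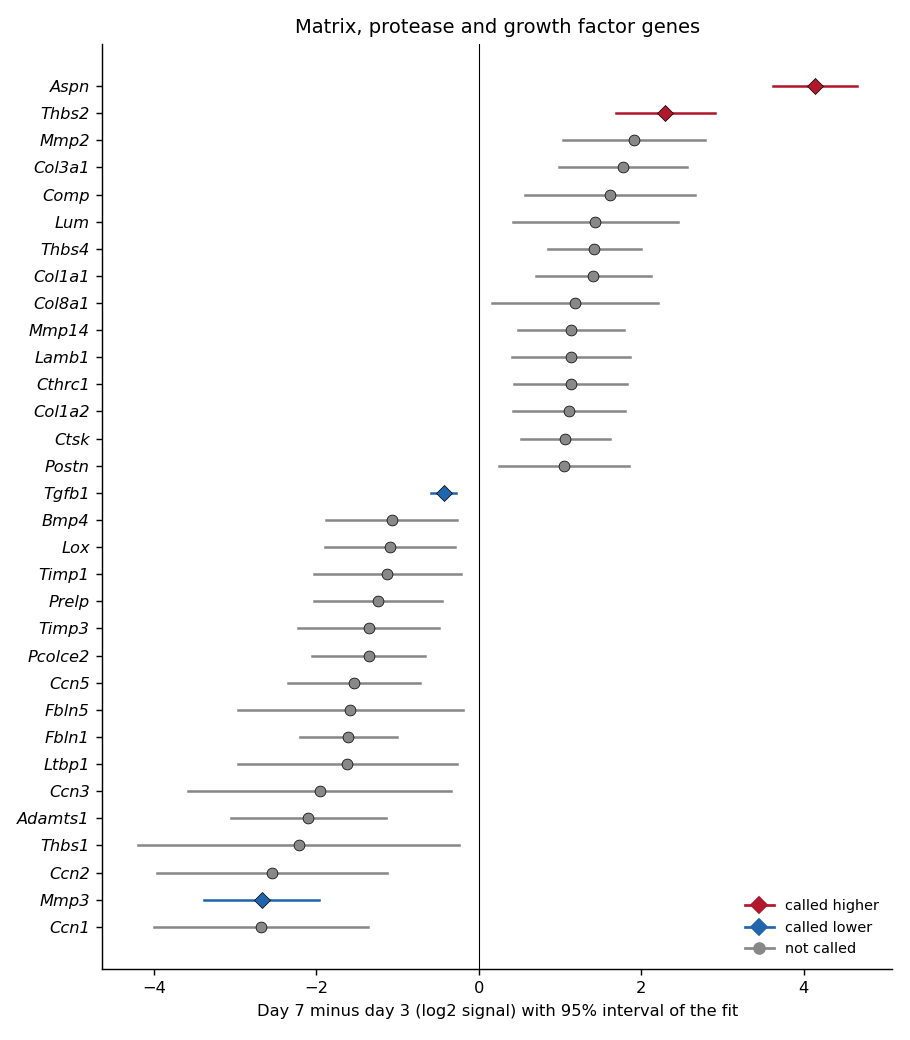
Change from day 3 to day 7 (day 7 minus day 3, log2 signal) with the 95% interval of the fit for 32 genes of 5 lists: collagens, matricellular proteins, basement membrane, proteases and growth factors. They are the called genes and those with an unadjusted p under 0.05 and at least a 2-fold difference, among 134 tested; 15 lie above 0, led by Aspn, and 17 below, with Ccn1 and Mmp3 at the foot.

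Interferon-inducible genes stood higher at day 7, but to an extent that differed between its arrays. None of 24 interferon-stimulated genes was called, although 19 lay above day 3 on all arrays and 23 had an unadjusted limma p under 0.05. Over all genes these shares on the higher side were 7.04% and 6.25%. The median change of the 24 genes was 1.43. Of 9 interferon-induced GTPases, which act on intracellular pathogens, none was called, 5 lay above on all arrays and the median was 2.27. The promoters of these genes are shown because the interferon-stimulated response element, the site bound by the ISGF3 and IRF factors, can be read in them. The letters GAAANNGAAA were searched on both strands in RefSeq promoters of build GRCm38.p6, each from 250 bases before to 50 after the start site. They occur in 3.44% of 32851 promoters and in 3.98% of the 12942 tested genes that have a promoter in the table. Among interferon-stimulated genes with a promoter they occur in 10 of 17 (58.8%), and among the GTPases in 6 of 6. The stretches below run 5′ to 3′ on the gene's strand with the match in capitals, which reads as its reverse complement where the match is on the opposite strand.
Ifit3b: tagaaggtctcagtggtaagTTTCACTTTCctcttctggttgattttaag
Stat2: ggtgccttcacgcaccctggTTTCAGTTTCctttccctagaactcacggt
Oas1a: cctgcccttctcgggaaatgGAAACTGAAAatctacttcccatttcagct
Gbp3: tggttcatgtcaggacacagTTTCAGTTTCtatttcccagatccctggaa
Irgm1: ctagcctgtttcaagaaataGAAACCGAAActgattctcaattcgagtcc
Igtp: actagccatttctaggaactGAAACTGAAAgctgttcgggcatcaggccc
Irgm2: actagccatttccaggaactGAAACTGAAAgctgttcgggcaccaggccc
These lie at chr19:34607749-34607798 (plus strand) for Ifit3b, chr10:128270256-128270305 (plus strand) for Stat2, chr5:120907510-120907559 (minus strand) for Oas1a, chr3:142559979-142560028 (plus strand) for Gbp3, chr11:48871415-48871464 (minus strand) for Irgm1, chr11:58199502-58199551 (plus strand) for Igtp and chr11:58214893-58214942 (plus strand) for Irgm2. The Igtp and Irgm2 stretches, from the same family of GTPases, share the match and most of the bases around it. The matches in Oas1a, Gbp3 and Irgm1 overlap a further match a few bases away, which is not shown. A match describes the letters and is no evidence of binding in these vessels.

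The values of the same genes showed where the arrays differed. Ifit3b, an antiviral protein that binds foreign RNA, was 6.65, 7.14 and 6.92 on the day 3 arrays and 7.96, 9.16 and 9.38 on the day 7 arrays, a difference of 1.93 ± 0.34 (limma adjusted p = 0.0619). Stat2, a subunit of ISGF3, was 7.41, 7.53 and 7.49 on the day 3 arrays and 7.92, 10.26 and 10.59 on the day 7 arrays, and Oas1a, which makes the oligoadenylates that activate RNase L, was 5.95, 6.17 and 6.07 on the day 3 arrays and 6.57, 8.11 and 7.79 on the day 7 arrays. Day 7 replicate 1 was the lowest of the day 7 arrays in these genes, above all of day 3 but below replicates 2 and 3. The differences were 2.11 ± 0.55 for Stat2 and 1.42 ± 0.33 for Oas1a (limma adjusted p = 0.16 and 0.123). Gbp3, a guanylate-binding protein, was 6.37, 6.63 and 6.33 on the day 3 arrays and 6.92, 9.05 and 9.38 on the day 7 arrays, and Igtp, an immunity-related GTPase, was 6.80, 7.18 and 6.74 on the day 3 arrays and 7.16, 10.27 and 10.62 on the day 7 arrays. In Igtp, replicate 1 at day 7 lay within the range of day 3, and day 0 replicate 3 stood at 9.45 against 7.28 and 7.67 on the other day 0 arrays. Cxcl9, a chemokine induced by interferon gamma, was 7.04, 6.50 and 6.00 on the day 3 arrays and 8.16, 11.18 and 9.78 on the day 7 arrays and showed the same high day 0 array, at 6.91, 7.74 and 9.94. Without day 7 replicate 1, the array with the lowest signal over background, 23 of 24 interferon-stimulated genes and 9 of 9 GTPases were called higher, with medians of 1.96 and 3.15. Without day 7 replicate 2 the medians were 1.08 and 1.82, and without day 7 replicate 3 they were 1.24 and 1.73. In neither case was a gene of these lists called. The mean signal of the interferon-stimulated list was 6.43, 6.68 and 6.61 on the day 3 arrays and 6.94, 8.69 and 8.42 on the day 7 arrays.

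Antigen presentation genes are also induced by interferon gamma. Of 6 MHC class II genes none was called, 4 lay above day 3 on all arrays, and the median was 0.93. H2-Eb1, a class II beta chain, was 7.56, 7.76 and 7.29 on the day 3 arrays and 8.19, 9.97 and 9.40 on the day 7 arrays, a difference of 1.65 ± 0.37 (limma adjusted p = 0.118). Of 8 MHC class I genes none was called, 4 lay above, and the median was 0.48. H2-D1, a class I heavy chain, was 9.16, 9.55 and 9.21 on the day 3 arrays and 9.74, 11.44 and 10.96 on the day 7 arrays (difference 1.41 ± 0.36, limma adjusted p = 0.157). Without day 7 replicate 1, 3 of the 6 and 5 of the 8 were called higher. Without day 7 replicate 2 none of either list was called, and without day 7 replicate 3 none of the 6 and 1 of the 8. Lymphocyte genes were near background: of 15 genes of T and NK cells 6 passed the filter, with a median change of 0.09, and of 10 genes of B and plasma cells 4 passed, with a median of -0.13. Neither median kept its sign when 1 array was left out (from -0.02 to 0.19 and from -0.30 to 0.14). Of the 6 genes of T and NK cells 2 lay above day 3 on all arrays, beside 7.04% of all genes, and none below. They were Il7r, at 0.63 ± 0.15, and Klrd1, at 0.58 ± 0.13, neither of them called (limma adjusted p = 0.133 and 0.124). With the muscle signal as a covariate the medians of the interferon-stimulated genes and the GTPases turned to -1.19 and -2.63, and with each other alternative they stayed positive.

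**Figure D3:**
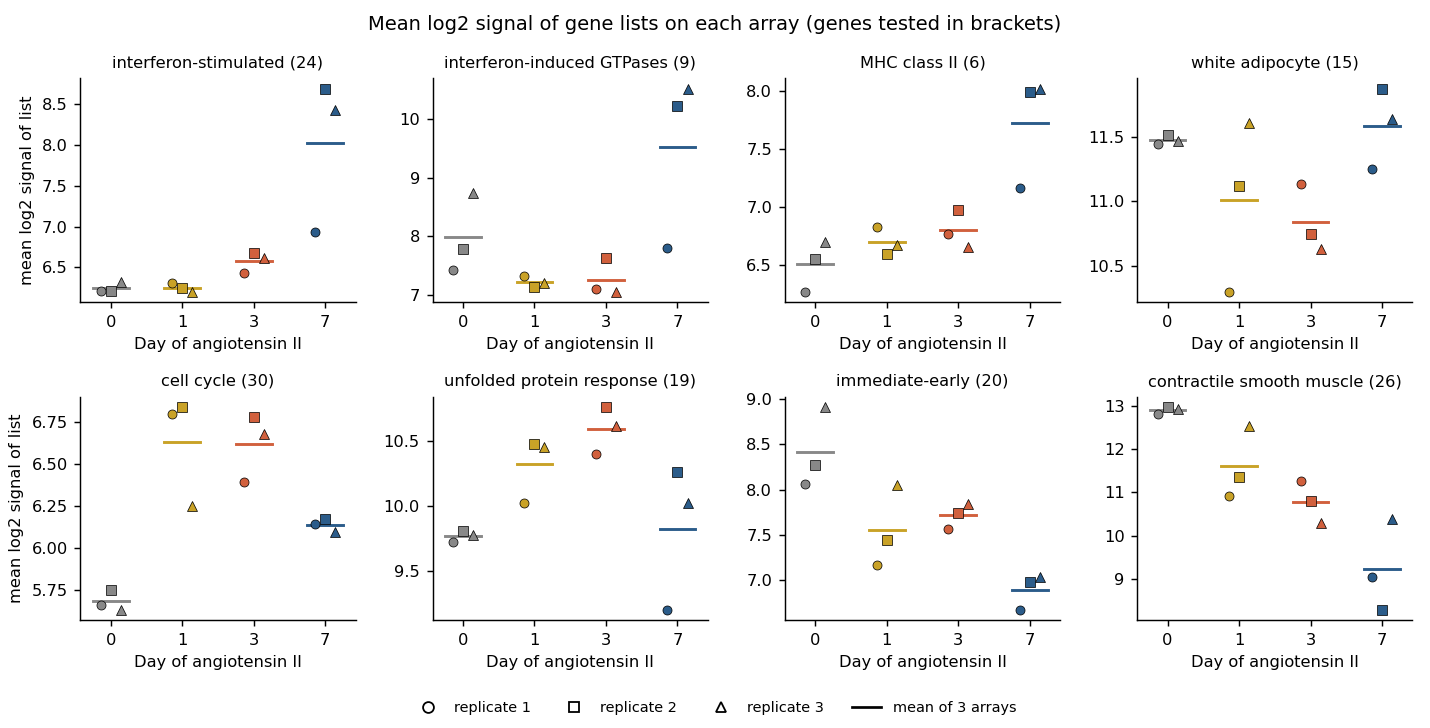
Mean log2 signal of the tested members of 8 gene lists on each of the 12 arrays, against the day of infusion; symbols mark replicates and short lines their mean. At day 7 the interferon-stimulated mean was 6.94 on replicate 1 against 8.69 and 8.42 on replicates 2 and 3, while the cell cycle, unfolded protein response and immediate-early means lay below all 3 day 3 arrays.

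The unfolded protein response, by which cells raise chaperones when proteins accumulate in the endoplasmic reticulum, stood lower at day 7. Of 19 genes none was called, and the median change was -0.78. Of the 19, 13 lay below day 3 on all arrays and none above, beside 7.97% and 7.04% of all genes. The element that the factors ATF6 and XBP1 use in such promoters, in the form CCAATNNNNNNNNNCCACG on either strand, occurs in 0.119% of all promoters and 0.193% of tested genes, and in 7 of the 17 list members with a promoter (41.2%). A stretch from each of 4 chaperone genes is shown, on the gene's strand with the match in capitals.
Hspa5: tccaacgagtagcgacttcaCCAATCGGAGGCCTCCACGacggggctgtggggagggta
Hsp90b1: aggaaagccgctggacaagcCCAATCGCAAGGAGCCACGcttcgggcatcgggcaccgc
Dnajc3: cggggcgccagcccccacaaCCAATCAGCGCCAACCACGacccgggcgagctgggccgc
Creld2: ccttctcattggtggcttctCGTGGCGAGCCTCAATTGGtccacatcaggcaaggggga
They lie at chr2:34772005-34772063 (plus strand) for Hspa5, chr10:86705618-86705676 (minus strand) for Hsp90b1, chr14:118937807-118937865 (plus strand) for Dnajc3 and chr15:88819500-88819558 (plus strand) for Creld2. Hsp90b1 holds another match closer to its start site. As above, a match is a description of the letters.

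Hspa5, the chaperone BiP, was 9.77, 9.93 and 9.98 at day 0, 11.70, 12.26 and 12.22 at day 3 and 9.55, 11.79 and 11.07 at day 7, and replicate 2 at day 7 overlapped day 3. Creld2, a secreted protein of the same response, was 7.83, 8.01 and 7.85, 9.44, 10.30 and 9.86 and 7.62, 8.98 and 8.50 on those days, without overlap between days 3 and 7. Its difference was -1.50 ± 0.36 and that of Hspa5 -1.26 ± 0.49 (limma adjusted p = 0.128 and 0.323). Dnajc3, a co-chaperone that restrains the kinase PERK, was 11.23, 11.57 and 11.43 on the day 3 arrays and 8.89, 10.43 and 10.12 on the day 7 arrays, a difference of -1.59 ± 0.40 (limma adjusted p = 0.142). Here too day 7 replicate 1 was the lowest array, and without it the list's median was -0.45. Ddit3, the factor CHOP of the terminal response, was the exception in sign, at 0.46 ± 0.23 (limma adjusted p = 0.439).

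Genes of cell division also stood lower at day 7 than at day 3. Of 30 none was called, and the median change was -0.40. Of the 30, 21 lay below day 3 on all arrays, beside 7.97% of all genes, and none lay above. Mki67, the antigen Ki-67 of cycling cells, was 5.62, 5.95 and 5.57 at day 0, 9.80, 10.11 and 8.16 at day 1, 8.33, 9.65 and 9.19 at day 3 and 7.19, 7.83 and 7.74 at day 7. Top2a, topoisomerase II alpha, was 7.62, 8.39 and 8.08 on the day 3 arrays and 6.88, 7.04 and 6.91 on the day 7 arrays, and Mcm3, of the replication helicase, was 6.69, 6.91 and 6.86 on the day 3 arrays and 6.31, 6.25 and 6.04 on the day 7 arrays. At day 7 the values of these 3 genes lay below every day 3 array and, for Mki67 and Top2a, above every untreated one. The differences from day 3 were -1.47 ± 0.49, -1.09 ± 0.31 and -0.62 ± 0.14 (limma adjusted p = 0.259, 0.186 and 0.127).

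Immediate-early genes, which respond within minutes to growth factors, stretch and handling, were lower at day 7 in 15 of 20 cases without overlap. Over all genes 7.97% lay below day 3 without overlap. Of the 20 immediate-early genes, 1 fell (Egr1), none rose, and the median was -0.73. The list's median difference from day 0 was -0.72 at day 1, -0.63 at day 3 and -1.51 at day 7. The list was thus below the untreated level before day 7 too. Egr1 was not called without any 1 of the day 3 arrays or day 7 replicate 2 (limma adjusted p from 0.0537 to 0.135). Fos, a subunit of AP-1, was 8.16, 9.08 and 8.64 on the day 3 arrays and 6.39, 7.31 and 6.69 on the day 7 arrays, a difference of -1.83 ± 0.45 (limma adjusted p = 0.135). Nr4a1, an orphan nuclear receptor, was 10.31, 10.91 and 11.60 on the day 3 arrays and 8.29, 9.37 and 9.67 on the day 7 arrays, after 12.70, 12.72 and 15.31 at day 0. Its difference from day 3 was -1.83 ± 0.82 (limma adjusted p = 0.389). Jun was an exception, at 7.77, 7.45 and 7.74 on the day 3 arrays and 7.30, 7.88 and 7.61 on the day 7 arrays with a difference of -0.06 ± 0.26. Ptgs2, the inducible cyclooxygenase, and Edn1, the vasoconstrictor endothelin 1, also lay below day 3 on all arrays, with differences of -2.11 ± 0.72 and -1.68 ± 0.34 (limma adjusted p = 0.266 and 0.0883).

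Contractile genes of smooth muscle had negative differences with a wide spread. Of 26 tested, all had a negative difference, none was called, 9 lay below day 3 on all arrays, and the median was -1.36. Myl9, the regulatory light chain of smooth muscle myosin, was 16.61, 17.51 and 16.74 at day 0, 14.57, 14.06 and 13.19 at day 3 and 9.99, 9.69 and 12.43 at day 7, a difference of -3.23 ± 0.74 from day 3 (limma adjusted p = 0.123). Acta2, smooth muscle actin, was 19.93, 19.93 and 19.40 on the day 3 arrays and 16.43, 15.20 and 18.74 on the day 7 arrays. The scale ends at 19.93, which 2 of the 3 day 3 arrays reached, so its difference of -2.97 ± 0.69 (limma adjusted p = 0.123) is a lower bound in size. Myh11 was 16.67, 15.71 and 14.79 on the day 3 arrays and 12.69, 10.80 and 15.10 on the day 7 arrays, and its groups overlapped because day 7 replicate 3 stayed at 15.10. That array was the highest of the 3 at day 7 in Myl9, Acta2, Tagln and Cnn1 as well. Without it 6 of the 26 were called lower and the median was -1.86. Without day 7 replicate 1 the median was -1.29 and without day 7 replicate 2 it was -0.98, with none called in either case. With adipocyte signal as a covariate 10 were called. With signal over background as a covariate none was, and the median was -1.04. The mean of the list was 10.30 to 11.27 on the day 3 arrays and 8.29 to 10.38 on the day 7 arrays, after 12.80 to 12.97 at day 0. Of 19 endothelial genes none was called, 2 lay below on all arrays, beside 7.97% of all genes, and the median was -0.32, or -0.17 without day 7 replicate 1.

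**Figure D4:**
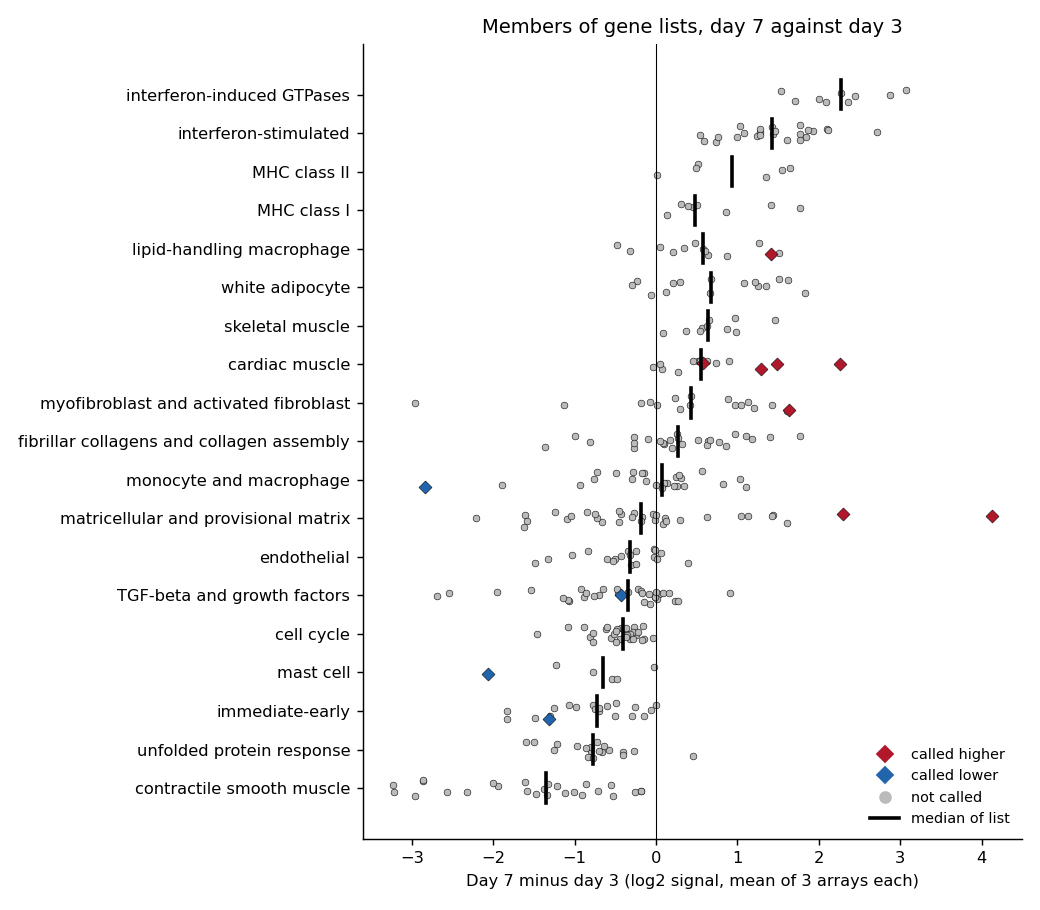
Change of each tested member of 19 gene lists from day 3 to day 7 (day 7 minus day 3, log2 signal); each point is a gene, diamonds are called genes and the bar is the list's median. Medians run from 2.27 for the interferon-induced GTPases to -1.36 for contractile smooth muscle.

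Of 26 monocyte and macrophage genes 1 fell (Lyve1) and none rose, 1 lay above and 3 below day 3 on all arrays, and the median was 0.08. Over all genes 7.04% lay above and 7.97% below. Leaving out day 7 replicate 1 gave 5 above and 4 below, with a median of 0.25. The median had no settled sign, at -0.09 without day 3 replicate 1, 0.18 without day 3 replicate 2, 0.04 without day 7 replicate 3 and -0.18 without day 7 replicate 2. The 3 that lay below were Lyve1, the mannose receptor Mrc1 and the haemoglobin scavenger receptor Cd163. Mrc1 was 11.88, 12.71 and 13.43 on the day 3 arrays and 9.76, 11.74 and 10.82 on the day 7 arrays, a difference of -1.90 ± 0.54, and Cd163 was 9.94, 10.03 and 10.12 on the day 3 arrays and 8.75, 9.11 and 9.42 on the day 7 arrays, a difference of -0.93 ± 0.22 (limma adjusted p = 0.186 and 0.127). Ccr2, the chemokine receptor of recruited monocytes, was the 1 that lay above, at 7.23, 7.71 and 7.27 on the day 3 arrays and 7.81, 8.86 and 8.02 on the day 7 arrays with a difference of 0.82 ± 0.32 (limma adjusted p = 0.318). Cd68, a lysosomal protein of macrophages, and Adgre1, an adhesion receptor of macrophages, overlapped between the days, with differences of -0.72 ± 0.36 and 0.14 ± 0.29. Lyve1, Mrc1 and Cd163 had been higher at day 3 than at day 0 by 2.29 ± 0.28, 3.54 ± 0.54 and 2.19 ± 0.22 (limma adjusted p = 0.00328, 0.00632 and 0.00172). In that comparison 11.8% of all genes were called. It shares the day 3 arrays on which these 3 genes were picked out against day 7. Lyve1 is shared with lymphatic endothelium, and which cells carried its signal was not tested.

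Mast cell genes lay lower at day 7. Cpa3, the carboxypeptidase of mast cell granules, was 9.18, 9.51 and 8.80 on the day 3 arrays and 7.08, 6.91 and 7.27 on the day 7 arrays, a fall of 2.07 ± 0.29 (limma adjusted p = 0.025), and its day 0 arrays gave 7.92, 8.09 and 8.84, above every day 7 array. Mcpt4, a chymase of connective tissue mast cells, was 9.57, 9.45 and 9.06 on the day 3 arrays and 7.88, 8.27 and 8.25 on the day 7 arrays, a difference of -1.22 ± 0.22 (limma adjusted p = 0.0654). Of 6 tested genes 1 fell and 5 lay below day 3 on all arrays, beside 0.154% and 7.97% of all genes. The median was -0.66. Cpa3 was not called without any 1 of the day 3 arrays or day 7 replicate 2 (limma adjusted p from 0.0566 to 0.128). The mean of the list was 7.63 to 7.79 on the day 3 arrays and 6.85 to 6.92 on the day 7 arrays. Of 19 chemokines none was called, 3 lay above and 3 below, beside 7.04% and 7.97% of all genes. Ccl6 and Ccl9, macrophage chemokines, lay below, at -1.69 ± 0.33 and -1.52 ± 0.41 (limma adjusted p = 0.081 and 0.167). Csf1, the growth factor of macrophages, was 8.38, 8.58 and 8.61 on the day 3 arrays and 6.99, 7.23 and 7.81 on the day 7 arrays, a difference of -1.18 ± 0.26 (limma adjusted p = 0.109). Saa3, an acute phase protein, was at background on the day 3 arrays and above it at day 7, at 5.38, 5.68 and 5.99 on the day 3 arrays and 6.96, 8.25 and 6.37 on the day 7 arrays (difference 1.51 ± 0.38, limma adjusted p = 0.146).

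Genes of the angiotensin system and its usual inflammatory readouts gave no call between these days. Of 22 genes of the renin-angiotensin system and of oxidases none was called, and the median was 0.00. Leaving out day 7 replicate 1 gave 2 called higher. Agtr1a, the type 1 receptor, was 6.88, 6.40 and 6.84 on the day 3 arrays and 7.07, 7.57 and 7.03 on the day 7 arrays, a difference of 0.52 ± 0.22 (limma adjusted p = 0.359). Ace, the converting enzyme, was 11.11, 12.14 and 12.22 on the day 3 arrays and 9.51, 9.47 and 11.72 on the day 7 arrays, a difference of -1.59 ± 0.62 (limma adjusted p = 0.323) with day 7 replicate 3 inside the range of day 3. Nox4, the constitutive NADPH oxidase of smooth muscle, differed by -0.52 ± 0.49, and Cybb, the phagocyte oxidase subunit, by 0.96 ± 0.32 (limma adjusted p = 0.713 and 0.259). Il6, the cytokine, was 5.89, 7.81 and 7.65 on the day 3 arrays and 6.02, 5.86 and 5.65 on the day 7 arrays, dimmer than the median negative control on each day 7 array, a difference of -1.27 ± 0.53 (limma adjusted p = 0.354). Ccl2, the monocyte chemoattractant, was 7.28, 7.75 and 8.74 on the day 3 arrays and 6.87, 7.22 and 7.03 on the day 7 arrays, a difference of -0.89 ± 0.35 (limma adjusted p = 0.331). Cxcl1, a neutrophil chemoattractant, was dimmer than the median negative control on each of the 6 arrays.

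The step from day 3 to day 7 can be set beside the step from day 0 to day 1, since they share no array. At day 1, 439 genes were called higher than at day 0 (1.99% of those tested) and 360 lower (1.63%). Of the 439, 317 lay below day 3 at day 7 and 112 above, whereas over all genes 9988 lay below and 11786 above. Brighter genes leaned downward as a whole: of all 5458 with a mean signal of at least 8, 3135 lay below and 2041 above. Of the 179 of these called higher at day 1, 129 lay below and 40 above. Across the 439 genes Pearson r between the 2 steps was -0.48. Over all genes tested it was -0.01, and over the 360 genes lower at day 1 it was 0.34. Each r is a description over genes measured on the same arrays, which are not independent replicates. None of the 439 rose and 10 fell from day 3 to day 7. The 360 genes lower at day 1 did not mirror them, with 213 below and 147 above day 3 at day 7. Read from the other side, 27 of the 34 genes that fell after day 3 had been higher at day 1 than at day 0, against 11310 of all 22066 genes. Of the 25 genes that rose after day 3, 14 had been higher and 11 lower at day 1. Clu was one of the latter, with a difference of -1.67 ± 0.31 at day 1 (limma adjusted p = 0.0234).

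**Figure D5:**
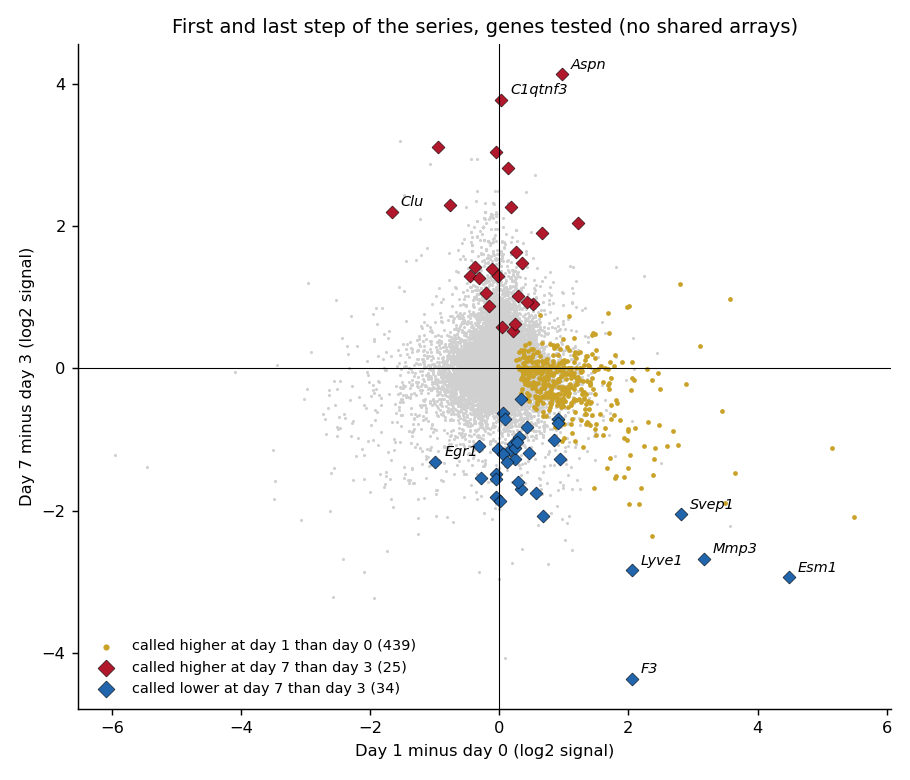
Change from day 0 to day 1 (horizontal) against change from day 3 to day 7 (vertical), log2 signal, for all 22066 genes; the 4 groups of arrays are distinct. Genes called higher at day 1 (gold, 439) lie mostly below 0 on the vertical axis, and Esm1, Mmp3, Svep1, Lyve1 and F3 lie at the lower right.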

How the data were processed

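The 12 arrays measured total RNA of mouse vessels. The values are log2 signals per transcript cluster that the authors made with Affymetrix Expression Console and deposited, per the submitters' processing notes. Its version, background correction and normalization are not given. The labels name the Mouse Genome 430 2.0 array, whereas the table's identifiers belong to transcript clusters of another Affymetrix design. Of 72688 features, 6732 are controls, 31258 clusters have 1 gene symbol, and 1492 with several and 33206 with none were left out of the gene tests. The scale ends at 19.93.

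Nothing was renormalized. A gene was kept when 3 or more of 12 arrays were at or over 5.25, the 40th percentile of the clusters. They were tested with limma 3.58.1 in R 4.3.3: 1 mean per group, all 12 arrays, empirical Bayes without trend, Benjamini-Hochberg adjustment over all 22066 genes, called under 0.05. The comparison, gene lists and tests were chosen with earlier results of these data known. Named genes are the 15 largest called changes in each direction without overlap, leaving out predicted genes, small RNAs and pseudogenes, a few members of each list, and genes looked up. Other list members were chosen as examples after their values were seen. List counts have no set test. The fit was tested on simulated data. Replicate numbers were checked for pairing: residuals of same-numbered day 3 and day 7 arrays correlated at -0.11, 0.22 and -0.46. Those of day 1 and day 7, which share the fit, correlated at 0.61, 0.36 and 0.66. The 2 groups compared were fitted as unpaired. With so few arrays these correlations cannot show whether same-numbered arrays belong together. Promoter sequences are RefSeq's, build GRCm38.p6. Quality measures were compared by exact permutation.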

Additional observations from a re-analysis of the deposited data

How the results depend on the processing

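The 59 calls (25 higher, 34 lower) became 131 (42 and 89) with quantile normalization, 326 (202 and 124) with array weights, 378 (241 and 137) with signal over background as a covariate, and 474 (246 and 228) with adipocyte signal as a covariate. They became 201 (79 and 122) at an adjusted p under 0.10, and a stricter filter gave 59 lower. With only the 6 arrays of days 3 and 7 there was 1 call (1 higher, 0 lower), with muscle signal as a covariate 0 (0 and 0; limma, 936 at an unadjusted p under 0.05). The share of higher calls was 42.4% as reported, 32.1% after quantile normalization, 31.4% with the stricter filter, 62% with array weights and 63.8% with the background covariate. Leaving out 1 array gave 10 to 272 calls, 6 to 205 higher and 4 to 118 lower. Signal over background, lower at day 7 (-0.22), ranged from -0.39 to 0.0568, its value without day 7 replicate 1. With the replicate number as a block, 78 genes were called (27 and 51), 50 of the 59 among them, including neither Alpl, Apoc1, Svep1, Tgfb1 nor Wfdc17, while Adipoq, Col5a1, Creld2 and Pfkfb3 gained a call. Same-numbered arrays of days 3 and 7 did not deviate together (correlations -0.11, 0.22 and -0.46), while those of days 1 and 7 did (0.61, 0.36 and 0.66). The labels tie no numbers across days. All 59 kept their direction in each alternative that tested them, except 1 with the muscle covariate. No other alternative moved the total beyond 1.5 times. The causes were not tested. Signal near the negative controls limits C1qtnf3, Myh7, Slamf7 and the muscle genes.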

Other observations

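Nerve genes varied between the arrays of a day. Th, the rate-limiting enzyme of catecholamine synthesis, was 5.77, 5.38 and 5.36 on the day 3 arrays and 5.62, 8.99 and 7.78 on the day 7 arrays, with 5.50, 7.26 and 5.21 at day 0 and 5.32, 7.05 and 5.19 at day 1. Dbh, which makes noradrenaline, was 6.67, 5.06 and 5.18 on the day 3 arrays and 5.93, 10.05 and 8.38 on the day 7 arrays, with 5.73, 8.26 and 5.13 at day 0 and 5.36, 7.63 and 5.09 at day 1. Snap25 and Stmn2, genes of neurons, were high on the same arrays: day 7 replicates 2 and 3 and replicate 2 of days 0 and 1. No day 3 array was among them: the mean of the Schwann cell and neuronal list was 6.21, 5.81 and 5.84 at day 3 and 5.99, 7.33 and 6.86 at day 7. None of the 10 Schwann cell and neuronal genes tested was called between days 3 and 7 (median 0.20).

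Ucp1, the uncoupling protein of brown fat, varied widely, at 11.51, 12.18 and 10.66 on the day 0 arrays, 5.39, 5.53 and 7.08 at day 1, 7.72, 10.87 and 10.68 at day 3 and 11.07, 5.83 and 8.22 at day 7. All day 0 arrays lay above all day 1 arrays, while days 3 and 7 overlapped. None of 13 brown adipocyte genes was called (median 0.07, from -0.05 to 0.44 without 1 array). Pfkfb3, which drives glycolysis, was 8.76, 9.38 and 9.84 on the day 3 arrays and 10.40, 11.13 and 11.52 on the day 7 arrays, a difference of 1.69 ± 0.47 (limma adjusted p = 0.176). Dio2, the deiodinase that activates thyroid hormone, was 7.45, 7.57 and 7.05 at day 0, 8.36, 9.83 and 9.89 at day 3 and 7.28, 7.26 and 7.82 at day 7, a difference of -1.91 ± 0.45 from day 3 (limma adjusted p = 0.128). Of 18 circadian clock genes none was called, with a median of 0.02, and of 25 oxidative phosphorylation genes none was called, with a median of -0.00. Of 20187 transcript clusters without a gene symbol limma called none, with 1503 at an unadjusted p under 0.05.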
